A study of Rattus norvegicus with 8 samples.

Results

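The matrix metalloproteinases (MMPs), the membrane-bound ADAM and secreted ADAMTS proteinases, their inhibitors of the TIMP family, Reck and the MMP inducer Bsg were compared between secretory-stage and maturation-stage enamel organs of the rat incisor. Members were chosen by gene symbol alone: every probe whose symbol starts with Mmp, Adam, Adamts or Adamtsl and a number, Timp1 to Timp4, Reck and Bsg, with the enamel matrix proteinase Mmp20 left out. The rule found 64 of the 22523 probes of the table, for 61 of its 21557 gene symbols, and it used no measured value. In the maturation stage, 7 of these probes had a higher signal, those of Timp3, Mmp13, Mmp9, Mmp12, Adam15, Mmp14 and Mmp19, and none passed the same thresholds in the opposite direction. Collagenase-3 (Mmp13) rose 10.4-fold, gelatinase B (Mmp9) 7.99-fold and the inhibitor Timp3 10.7-fold, whereas the sheddase Adam17 and the inducer Bsg did not pass after quantile normalization, with differences that depended on the scaling of the arrays.

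MMPs are zinc-dependent endopeptidases made as inactive proenzymes, which other proteinases or a membrane-type MMP cut to set the active site free, and together they cleave collagens, gelatin, proteoglycans and many signalling proteins. ADAMs sit in the cell membrane and release the outer parts of growth factors, cytokines, adhesion proteins and Notch pathway proteins, while ADAMTS enzymes are secreted and cut large proteoglycans and procollagens. TIMPs block the active site, with Timp3 bound to the matrix and able to inhibit several ADAMs as well, and Reck is a membrane-anchored inhibitor. During enamel formation the protein matrix laid down by secretory ameloblasts is broken down and removed as the crystals thicken in the maturation stage.

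Secretory-stage and maturation-stage enamel organs were taken from the mandibular incisors of 4 male Wistar Hannover rats (labelled Wistar), aged 4 weeks, with no treatment or genetic change in either group. Each rat gave 1 sample per stage (n = 4 arrays per stage), and each total RNA sample was measured on its own Illumina BeadChip array. The material was the cell layer left on the enamel surface after the overlying bone of freeze-dried mandibles had been lifted off, split along a reference line, so cells other than ameloblasts could be included. As in any bulk tissue, fewer cells of a type cannot be told apart from less RNA per cell.

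Signals are given as normalized log2 values after background correction, and log2 fold changes are taken as maturation over secretory, with the standard error (SE) and a Benjamini-Hochberg adjusted p from limma over all probes. Calls required an adjusted p below 0.05 together with a fold of 1.8 or more, which is 0.848 on the log2 scale. Between 11164 and 11450 probes were detected (detection p below 0.05) on the maturation-stage arrays and between 10667 and 10941 on the secretory-stage arrays, and each of the 8 arrays was closest to the arrays of its own stage. The probe signals rested on 12 to 93 beads each, and the error of the bead signals was not compared with the spread between arrays. The stage labels were checked with stage markers. All 3 maturation ameloblast genes on the array (Klk4, Slc24a4, Car6) were called higher, and of 5 secretory ameloblast genes 3 (Enam, Mmp20, Dspp) were called lower. Dspp, a dentin matrix gene known chiefly from odontoblasts, was detected on all 4 secretory-stage arrays and on no maturation-stage array, and was at least 34-fold lower in the latter (adjusted p = 3.41e-07). Enamelin (Enam), a secretory-stage matrix protein, stood at 11.98, 12.03, 11.94 and 11.98 in secretory replicates 1 to 4 and at 9.08, 5.17, 5.53 and 8.22 in maturation replicates 1 to 4, so maturation replicates 1 and 4 kept more of it than replicates 2 and 3.

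Of the 64 member probes, 44 were detected on at least 1 array, 28 on all 8 and 20 on none. The 7 called higher made up 10.9% of the members, where 4.6% of all probes were called higher. None was called lower, where 3.15% of all probes were, and in either direction 7.75% of all probes were called. For the lower direction the count was 0 with limma and 0 with the methods' t-test. At an unadjusted p below 0.05 in limma, 12 of the 64 member probes were lower, beside 4126 of all 22523 probes, which is about the same share. At an adjusted p below 0.05 with no condition on the fold, 12 members were higher and 6 lower, against 12.8% and 14% of all probes. In 17 members (26.6%) the values of the stages were fully separate, against 27.7% over the table, and the median log2 fold change was 0.02 for the members and -0.01 over the whole table. At any size of change the members passed about as often as other probes did, so these shares are no result about the members. The split depended on scaling: it was 17 higher and 5 lower when each array was scaled to a common median, and 19 and 1 with no normalization between arrays, when the median of all probes itself moved to 0.13.

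**Figure D1:**
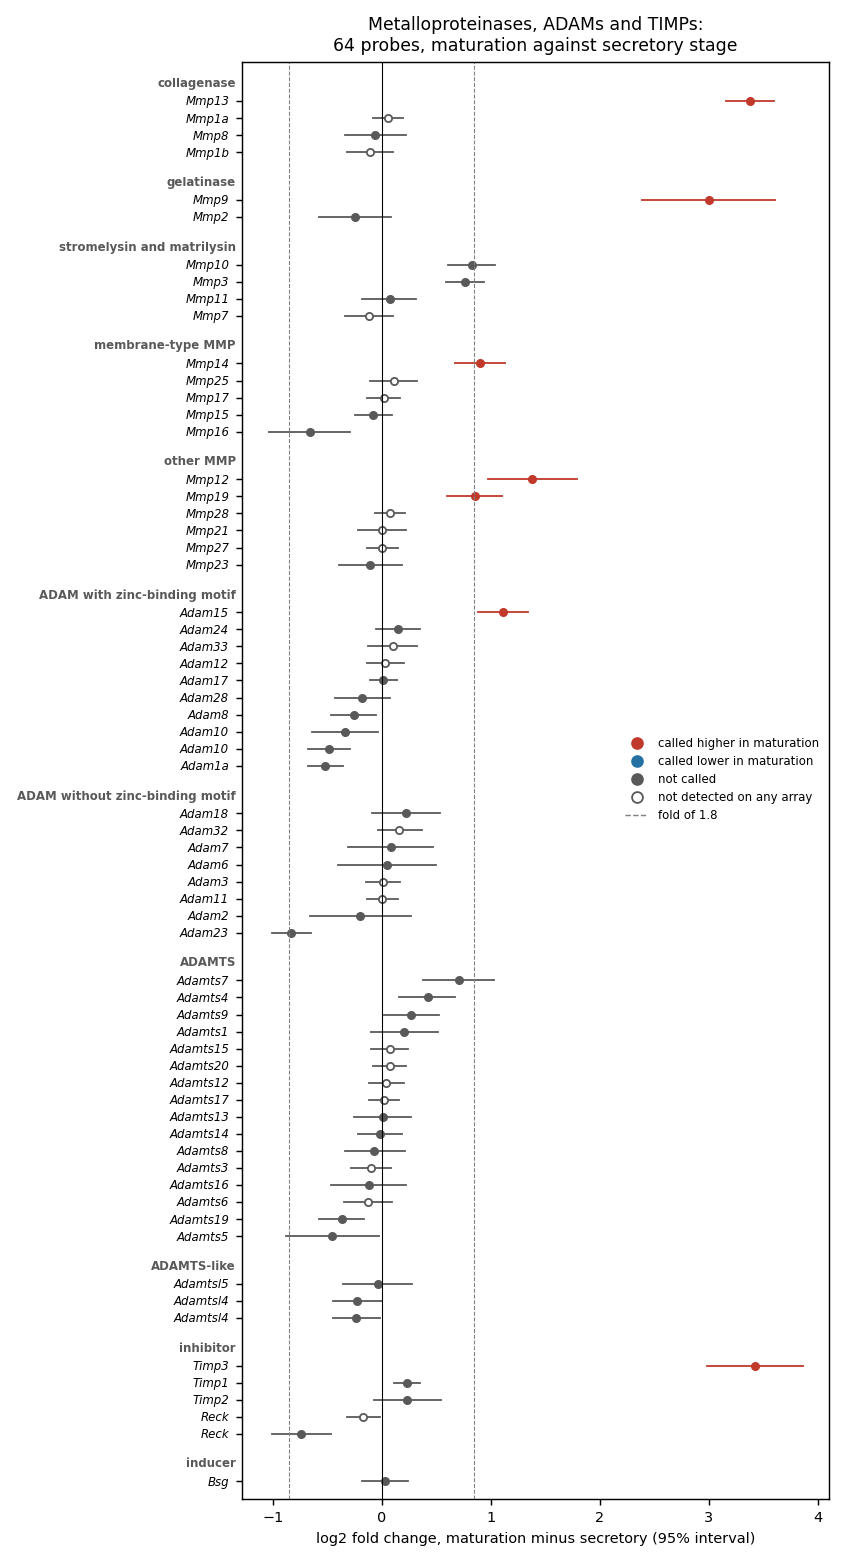
Log2 fold change (maturation minus secretory) of each of the 64 member probes with its 95% interval, grouped by role; red points were called higher, open points were detected on no array, and dashed lines mark a fold of 1.8. The 7 called probes lie between 0.85 and 3.42, and most other members lie close to 0. The points of Mmp10, Mmp3, Adam24 and Adam18 are fitted values against an undetected secretory stage, and those of Adam28 and Adamts19 against an undetected maturation stage.

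By role, 5 of 21 MMP probes, 1 of 18 ADAM probes, 1 of 5 inhibitor probes and none of the 16 ADAMTS probes, 3 ADAMTS-like probes or the single Bsg probe were called. The collagenases cut fibrillar collagen. Mmp13, collagenase-3, is best known from cartilage and bone. Its normalized log2 signal was 11.14, 11.10, 11.27 and 11.18 in maturation replicates 1 to 4 and 7.54, 7.89, 7.73 and 8.0 in secretory replicates 1 to 4. Every maturation-stage value stood more than 3 log2 units above every secretory-stage value. The log2 fold change was 3.38 (SE 0.0984, adjusted p = 3.57e-08), and it ranged from 3.17 to 3.60 in the 4 rats. The other collagenase probes gave no comparable signal: Mmp1a and Mmp1b were detected on no array, and Mmp8, the neutrophil collagenase, on 1 maturation-stage and 2 secretory-stage arrays (log2 fold change -0.06).

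The gelatinases, which cleave denatured collagen and basement membrane, were read by 1 probe each, and that of Mmp9 was called. Mmp9, gelatinase B, a product of osteoclasts and leukocytes among other cells, read 10.18, 9.86, 10.82 and 9.82 in maturation replicates 1 to 4 and 6.59, 7.74, 7.25 and 7.12 in secretory replicates 1 to 4. The groups did not overlap, and the values of each stage spread over about 1 log2 unit. The log2 fold change was 3.0 (SE 0.271, adjusted p = 2.8e-05), between 2.12 in rat 2 and 3.60 in rat 1. Mmp2, gelatinase A, which mesenchymal cells make, read 5.23, 5.57, 5.09 and 5.41 in the maturation stage and 5.58, 5.22, 5.88 and 5.65 in the secretory stage. These values overlapped, and the log2 fold change of -0.25 did not pass (95% interval -0.58 to 0.08, adjusted p = 0.284).

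Among the membrane-type MMPs, Mmp14 (MT1-MMP) cuts collagen at the cell surface and activates the proenzyme of Mmp2. It read 11.39, 11.40, 11.50 and 11.40 in maturation replicates 1 to 4, against 10.62, 10.70, 10.56 and 10.21 in secretory replicates 1 to 4. The maturation-stage values were close together and all above the secretory-stage ones, for a log2 fold change of 0.90 (SE 0.102, adjusted p = 0.000119). This call rested on secretory replicate 4: without it the log2 fold change was 0.79, under the fold threshold, with an adjusted p of 4.62e-05. Mmp16 (MT3-MMP) moved the other way without reaching the fold, from 5.84, 6.12, 6.39 and 6.31 in the secretory stage to 5.93, 5.51, 5.38 and 5.20 in the maturation stage. The log2 fold change was -0.66 (SE 0.166, adjusted p = 0.014), the stages overlapped in rat 1, where the difference was 0.09, and the adjusted p rose to 0.0859 under median scaling. Mmp15 was at -0.08, and Mmp17 and Mmp25 were detected on no array.

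Mmp12, the elastase of macrophages, read 7.81, 6.84, 7.56 and 7.47 in maturation replicates 1 to 4 and 6.07, 5.90, 5.97 and 6.22 in secretory replicates 1 to 4. It was higher in each of the 4 rats, least in rat 2, and its log2 fold change was 1.38 (SE 0.182, adjusted p = 0.000325). Without background correction the log2 fold change was 0.75 and the fold threshold was missed. Mmp19, which cleaves several basement membrane and matrix proteins, read 6.30, 6.63, 6.65 and 6.40 against 5.60, 5.59, 5.91 and 5.47. No values overlapped and the log2 fold change was 0.85 (SE 0.112, adjusted p = 0.000329), which lies just past the fold threshold. The call of Mmp19 was lost when secretory replicate 1, 2 or 4 or maturation replicate 2 or 3 was left out (0.84, 0.84, 0.80, 0.80 and 0.80), and with normexp without negative controls, no background correction or an offset of 50 (0.69, 0.36 and 0.56).

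**Figure D2:**
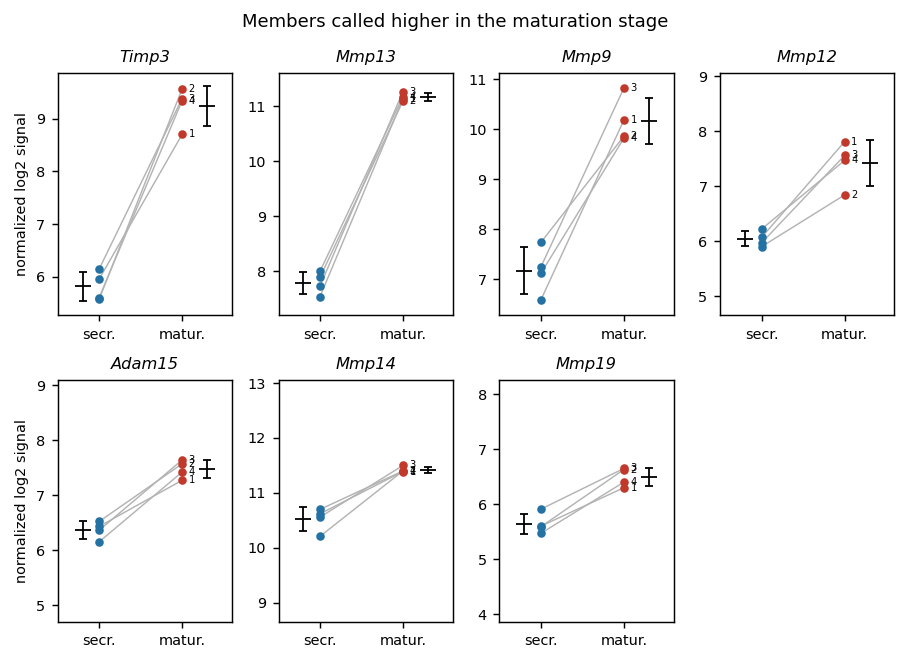
Normalized log2 signal of the 7 called members on each of the 8 arrays, with secretory (blue) and maturation (red) values of a rat joined by a line, rat numbers beside the maturation points, and mean and SD of the 4 arrays beside each stage; each panel has its own vertical scale. In all 7 panels the 4 red points lie above the 4 blue points, with the widest separation for Timp3, Mmp13 and Mmp9.

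Mmp13 and Mmp12 are neighbours in a cluster of MMP genes on chromosome 8. In the RefSeq annotation of the GRCr8 assembly the cluster holds 10 protein-coding MMP genes, 9 of them members here. Their order is Mmp13, Mmp12, Mmp1b, Mmp3, Mmp1 (Mmp1a on the array), Mmp10, Mmp8, Mmp27, Mmp20 and Mmp7. Promoter windows, from 250 bases before to 50 bases after the annotated start, were on hand for all 9 cluster members and for 37 of the 61 member genes. The last 160 bases before the start are shown for the 4 cluster members whose signals differed between the stages at an adjusted p below 0.05 (Mmp13, Mmp12, Mmp3 and Mmp10), for Mmp7 as an undetected neighbour with the same motif, and for Timp3 as the called inhibitor on another chromosome. They are written 5′ to 3′ on the strand of the gene, with capitals marking TGANTCA (the AP-1 consensus), TATAAA (the TATA box) and AACCACA (the core bound by RUNX factors), each searched on both strands.
Mmp13 (chr8:12782669-12782828, plus strand): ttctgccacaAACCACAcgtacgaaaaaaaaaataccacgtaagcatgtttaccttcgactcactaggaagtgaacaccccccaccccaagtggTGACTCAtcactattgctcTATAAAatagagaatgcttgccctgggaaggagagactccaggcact
Mmp12 (chr8:12866492-12866651, plus strand): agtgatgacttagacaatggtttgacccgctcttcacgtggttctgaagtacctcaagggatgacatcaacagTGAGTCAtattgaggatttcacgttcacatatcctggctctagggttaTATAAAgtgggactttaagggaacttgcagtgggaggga
Mmp3 (chr8:12925121-12925280, plus strand): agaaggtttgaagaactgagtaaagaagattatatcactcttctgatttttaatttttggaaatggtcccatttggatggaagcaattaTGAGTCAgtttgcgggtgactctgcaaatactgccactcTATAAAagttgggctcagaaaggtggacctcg
Mmp10 (chr8:12974547-12974706, plus strand): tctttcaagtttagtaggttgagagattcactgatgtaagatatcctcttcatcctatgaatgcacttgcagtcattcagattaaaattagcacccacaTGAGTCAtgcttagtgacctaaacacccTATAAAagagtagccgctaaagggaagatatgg
Mmp7 (chr8:13132883-13133042, plus strand): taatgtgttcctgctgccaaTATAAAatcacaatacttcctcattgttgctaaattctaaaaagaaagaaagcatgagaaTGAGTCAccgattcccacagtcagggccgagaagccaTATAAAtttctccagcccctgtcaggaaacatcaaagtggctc
Timp3 (chr7:19459559-19459718, minus strand): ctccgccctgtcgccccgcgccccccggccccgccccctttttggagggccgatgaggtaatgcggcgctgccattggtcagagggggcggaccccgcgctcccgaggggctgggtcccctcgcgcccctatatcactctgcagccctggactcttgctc
The TGANTCA letters stood 66 bases before the start in Mmp13, 87 in Mmp12, 71 in Mmp3, 61 in Mmp10 and 80 in Mmp7, and no match overlapped a match of another motif in the stretches shown. Of the 9 cluster members, 6 held TGANTCA, the sixth being Mmp1a with matches at 84 and 242 bases before the start, whereas 7.33% of the 33469 promoter windows of the assembly held it. Outside the cluster 1 of 28 member windows did, that of Adam24. TATAAA was in 7 of the 9 cluster members and in 14.2% of all windows. AACCACA was in Mmp13 alone among the 9, at 150 bases before the start, and in 5.57% of all windows. The Timp3 window held none of the 3. A match is a run of letters and shows neither binding nor use in these samples.

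All 4 cluster members with an adjusted p below 0.05 held TGANTCA, but so did Mmp1a and Mmp7, which were detected on no array, and 5 of the 9 were detected on at most 2 arrays of either stage. The stromelysins Mmp3 and Mmp10, which cleave matrix proteins and activate procollagenases, were detected on all 4 maturation-stage arrays and on no secretory-stage array. Mmp10 read 5.37, 5.09, 5.47 and 5.06 in maturation replicates 1 to 4 and 4.39, 4.47, 4.45 and 4.37 in the secretory stage (adjusted p = 0.000138). Mmp3 read 5.32, 5.20, 5.44 and 5.14 against 4.42, 4.61, 4.52 and 4.51 (adjusted p = 5.78e-05). Because a secretory-stage level was not measured, only bounds can be given: Mmp10 was at least 1.15-fold and Mmp3 at least 1.17-fold higher with maturation, measured against the lowest signal of a detected probe on each secretory-stage array.

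**Figure D3:**
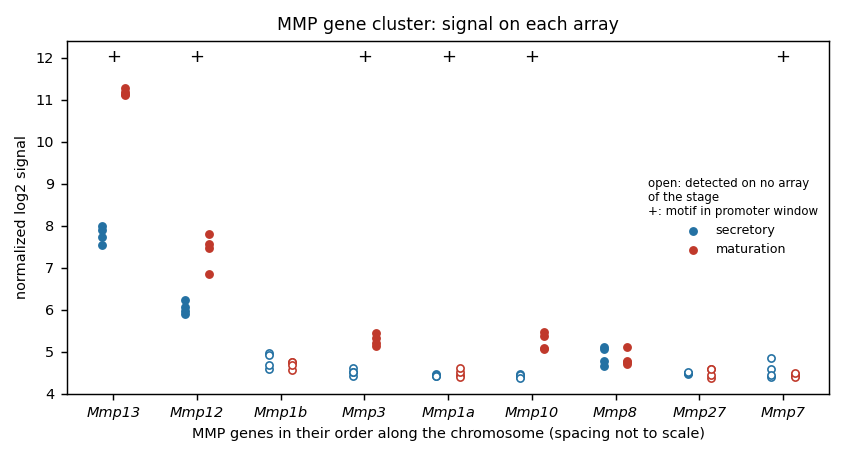
Normalized log2 signal of the 9 members of the MMP gene cluster on each array (blue secretory, red maturation; open where no array of the stage detected the probe), in chromosomal order with equal spacing; a plus sign marks genes with TGANTCA in the promoter window. Mmp13 and Mmp12 are the members with clear separation at detected levels, and Mmp3 and Mmp10 were detected in the maturation stage alone.

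Macrophage, leukocyte and osteoclast markers were also higher in the maturation stage. Of 9 macrophage and leukocyte genes on the array, 7 were called higher (Ptprc, Cd68, Cd14, Lcp1, Cd74, Tyrobp and Laptm5) and none lower. The normalized signals of the 9, summed on the linear scale, came to 10764 to 13891 in the maturation stage and 3923 to 4674 in the secretory stage. Of 3 osteoclast genes, Ctsk (log2 fold change 1.13) and Atp6v0d2 (2.88) were called higher and Calcr was detected on no array, with sums of 14064 to 17807 against 5858 to 8293. Of 8 fibroblast genes only Thy1 was called (sums 82645 to 86168 against 66739 to 78531), and of 6 odontoblast and osteoblast genes Ibsp was called higher and Col11a2 lower, with Sp7 detected on no array and Dspp, lower, counted under ameloblasts (9767 to 11126 against 6884 to 8928). Of 5 endothelial genes Vwf was called higher and Cdh5 was detected on no array (5292 to 6532 against 4094 to 5117), and of 2 epithelial genes Cdh1 was called lower (2076 to 2518 against 1557 to 2204). All these sums are of signals after background correction and normalization between arrays. The deposited signals, before either step, are on another scale. Over all probes they summed to 13355073 to 16122665 on maturation-stage arrays and 11881691 to 12046793 on secretory-stage arrays. The median log2 fold change was 1.52 for the macrophage and leukocyte list, 0.19 for the fibroblast list and -0.24 for the epithelial list. The part of these cell types in the signals of Mmp9, Mmp12, Mmp13, Timp3 and the other members was not tested.

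Of the 5 inhibitor probes, that of Timp3 was called higher, Timp1 was higher and 1 Reck probe lower at an adjusted p below 0.05 without the fold, and 2 did not pass. Timp3, the TIMP held in the matrix, read 8.70, 9.56, 9.38 and 9.34 in maturation replicates 1 to 4 and 5.96, 5.58, 6.15 and 5.61 in secretory replicates 1 to 4. The stages stood well apart in every rat, by 2.73 in rat 1 to 3.98 in rat 2, and the log2 fold change was 3.42 (SE 0.195, adjusted p = 1.47e-06). Without background correction it was 2.24, where that of Mmp13 was 2.94 and that of Mmp9 2.39, so the order of the 3 by size depended on the background setting. Timp1, a soluble inhibitor of most MMPs, read 13.35, 13.35, 13.45 and 13.32 against 13.19, 13.12, 13.12 and 13.12. Its log2 fold change of 0.23 (SE 0.0537, adjusted p = 0.00996) was small, with no overlap between the stages. With normexp without negative controls the limma adjusted p of Timp1 was 0.0716, which did not pass. Timp2, which also takes part in the activation of the Mmp2 proenzyme, read 7.60, 7.77, 7.76 and 7.43 against 7.23, 7.68, 7.59 and 7.12, and its log2 fold change of 0.23 did not pass (95% interval -0.07 to 0.54, adjusted p = 0.282). Scaling moved it to 0.57 (adjusted p = 0.0172) with a common median and to 0.77 (adjusted p = 0.00397) with no normalization. Timp4 was not analysed here.

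Reck was read by 2 probes that differed in detection. The first, ILMN_1350201, gave 11.75, 12.20, 12.31 and 11.98 in secretory replicates 1 to 4 and 11.17, 11.33, 11.38 and 11.41 in the maturation stage. All secretory-stage values lay above all maturation-stage values, and the log2 fold change of -0.74 (SE 0.119, adjusted p = 0.00109) did not reach the fold threshold. With no normalization between arrays it was -0.33, with an adjusted p of 0.0697. The second, ILMN_2038951, was detected on no array, so it gives no second reading of the gene. Bsg (basigin, or EMMPRIN), a membrane glycoprotein that induces MMPs in neighbouring cells, read 10.52, 10.40, 10.28 and 10.20 in the maturation stage and 10.49, 10.36, 10.27 and 10.15 in the secretory stage. The ranges overlapped almost fully, for a log2 fold change of 0.03 (95% interval -0.18 to 0.24, adjusted p = 0.87). Under median scaling it was 0.32 (adjusted p = 0.0446), and with no normalization between arrays 0.52 (adjusted p = 0.0104).

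**Figure D4:**
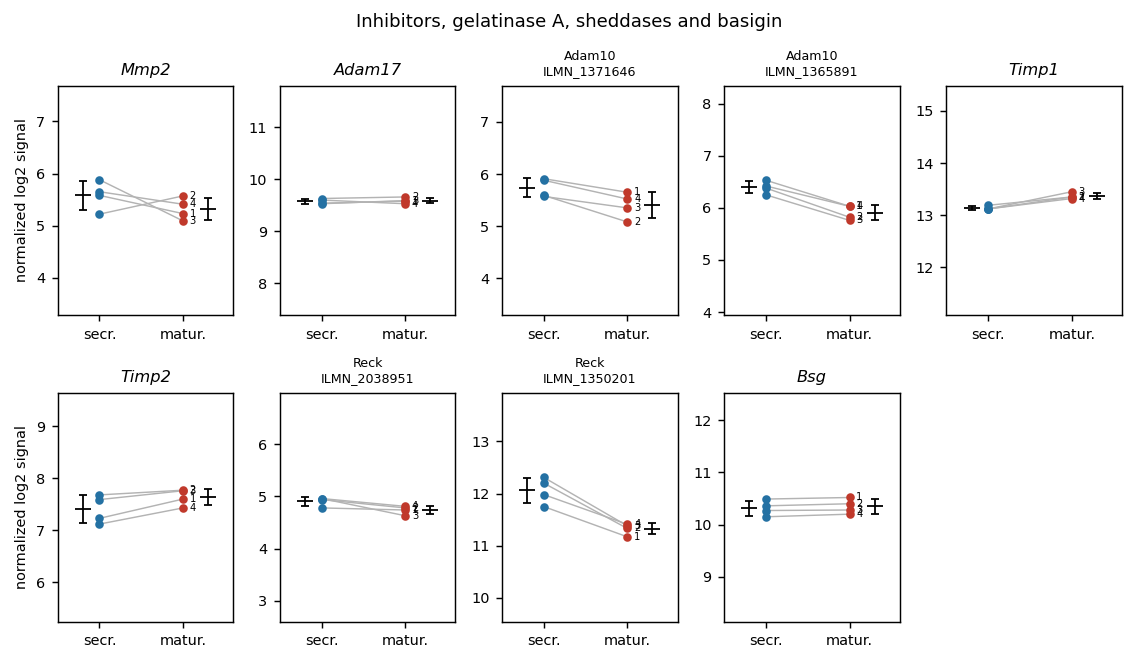
Normalized log2 signal of Mmp2, Adam17, both Adam10 probes, Timp1, Timp2, both Reck probes and Bsg on each array, with the values of a rat joined by a line and mean and SD of 4 arrays beside each stage; all panels span the same number of log2 units. None of the 9 probes was called, and the lines of the detected Reck probe and of both Adam10 probes run downward to the maturation stage in all 4 rats.

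Among ADAMs that keep the zinc-binding motif, 1 of 10 probes was called. Adam15, an ADAM that carries an integrin-binding sequence and takes part in cell adhesion, read 7.27, 7.57, 7.64 and 7.42 in maturation replicates 1 to 4 and 6.43, 6.52, 6.36 and 6.15 in secretory replicates 1 to 4. It was higher in every rat, by 0.84 to 1.29, with a log2 fold change of 1.11 (SE 0.103, adjusted p = 3.4e-05), which without background correction was 0.63. Neither of the main sheddases was called. Adam17, which releases tumour necrosis factor and ligands of the EGF receptor, read 9.58, 9.66, 9.59 and 9.53 against 9.54, 9.63, 9.53 and 9.60 (log2 fold change 0.01, 95% interval -0.11 to 0.14, adjusted p = 0.907). It was 0.34 (adjusted p = 0.00292) under median scaling and 0.54 (adjusted p = 0.00071) with no normalization between arrays. Adam10, which cleaves Notch receptors and cadherins, was lower by 1 probe: ILMN_1365891 read 6.03, 5.82, 5.76 and 6.03 against 6.53, 6.38, 6.25 and 6.42, for a log2 fold change of -0.49 (SE 0.0865, adjusted p = 0.00203). Under median scaling that adjusted p was 0.0693. The other Adam10 probe, ILMN_1371646, read 5.65, 5.08, 5.35 and 5.52 against 5.91, 5.59, 5.57 and 5.88. Its log2 fold change of -0.34 had an adjusted p of 0.0947, and of 0.0131 with the rat as a block, and without normalization between arrays it was 0.04. Adam1a was at -0.52 (adjusted p = 0.000432), and at -0.17 with an adjusted p of 0.153 when arrays were not normalized to each other. The probe listed as Adam8 was at -0.26 (adjusted p = 0.0673, and 0.0201 with the rat as a block), but its gene ID now belongs to Tubgcp2, so its identity is uncertain.

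ADAMs without the zinc-binding motif act in adhesion rather than proteolysis, and none of their 8 probes was called. Adam23, an integrin ligand first known from the nervous system, came closest. It read 6.68, 6.75, 6.93 and 6.72 in secretory replicates 1 to 4 and 5.90, 5.95, 5.80 and 6.10 in the maturation stage. The stages did not overlap, and the log2 fold change of -0.83 (SE 0.0819, adjusted p = 4.94e-05) was just short of the fold threshold. Adam23 was called lower when secretory replicate 1, secretory replicate 4 or maturation replicate 4 was left out, and was then the single member in that direction. Its log2 fold change was smaller under median scaling (-0.56), with no normalization between arrays (-0.36, adjusted p = 0.0351) and without background correction (-0.39). Adam3, Adam11 and Adam32 were detected on no array, and Adam2, Adam6, Adam7 and Adam18 were detected on some arrays and had intervals that include 0.

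Of the 16 ADAMTS probes, 10 were detected on at least 1 array and none was called. Adamts7, which can cleave the cartilage oligomeric matrix protein, had the largest difference among them, with 6.88, 7.22, 7.27 and 7.01 in maturation replicates 1 to 4 and 6.26, 6.76, 6.42 and 6.11 in secretory replicates 1 to 4. The stages did not overlap, and the log2 fold change was 0.71 (SE 0.143, adjusted p = 0.00436). It was called under median scaling, at 1.0, and with no normalization between arrays, at 1.19, and was at 0.38 without background correction. The aggrecanase Adamts4 was at 0.42 (adjusted p = 0.0213, and 0.0565 with the rat as a block), whereas the second aggrecanase, Adamts5, was at -0.46 with a spread that kept it from passing (SE 0.189, adjusted p = 0.118). The versicanases Adamts1 and Adamts9 were at 0.20 and 0.27 (adjusted p = 0.352 and 0.121). Adamts19 was detected on 1 secretory-stage array and on no maturation-stage array, so no fold is given. Its adjusted p of 0.0133, lower in the maturation stage, was 0.066 with no normalization between arrays. Among the ADAMTS-like proteins, which have no proteinase domain, both Adamtsl4 probes read alike (-0.23 and -0.24, adjusted p = 0.14 and 0.11).

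Among members detected on all 8 arrays, those with the smallest differences were Adam17, Bsg, Mmp11, Mmp23 and Adamts16. Mmp11 (stromelysin-3), a stromal MMP, read 6.67, 6.39, 6.19 and 6.61 in the maturation stage and 6.43, 6.48, 6.42 and 6.25 in the secretory stage, for a log2 fold change of 0.07 (95% interval -0.18 to 0.31). Mmp23 read 8.25, 7.83, 8.21 and 8.18 against 7.99, 8.43, 8.37 and 8.09 (-0.11, interval -0.39 to 0.18), and Adamts16 read 5.30, 5.62, 5.30 and 5.61 against 5.52, 5.85, 5.79 and 5.16 (-0.12, interval -0.47 to 0.22). Mmp11, Mmp23 and Adamts16 all overlapped between the stages. The signs of Mmp23 and Adamts16 depended on scaling, with 0.23 and 0.03 under median scaling, and Mmp11 passed the adjusted p with no normalization between arrays (0.54, adjusted p = 0.0251).

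Genes that activate, inhibit or are cut by the family were taken from a list. Of 40 such genes on the array, 12 were called higher (30%, against 4.6% of all probes) and 4 lower (10%, against 3.15%). Each gene was read by its probe with the smallest p, a choice that the shares of all probes do not carry. The list was also chosen with earlier results of these data known. Of the 40, 31 were detected on 4 or more arrays, and of all probes so detected 9.19% were called higher and 6.27% lower. Of 6 activators of proenzymes, 3 were called higher and 1 lower. Klk4, the serine proteinase that clears enamel matrix, read 11.84, 12.03, 11.74 and 12.10 in maturation replicates 1 to 4 and was undetected throughout the secretory stage, which puts it at least 118-fold higher (adjusted p = 3.68e-09). The size of this bound rests on the background setting: the fitted log2 fold change was 7.19, but 6.01 with an offset of 50 and 5.13 without background correction. Plau, the urokinase that generates plasmin, read 6.61, 7.13, 6.87 and 6.65 against 4.61, 5.60, 4.87 and 4.91, with detection on 1 secretory-stage array (log2 fold change 1.82, SE 0.201, adjusted p = 0.000101). Without background correction Plau was at 0.75 and missed the fold threshold. Plat, the tissue-type plasminogen activator, was also called (1.58, adjusted p = 2.45e-06). In the opposite direction, the proprotein convertase Pcsk6 read 9.99, 10.44, 10.45 and 10.22 in secretory replicates 1 to 4 and 8.39, 8.11, 8.19 and 8.27 in the maturation stage (-2.03, SE 0.11, adjusted p = 1.01e-06). Of the other activators, Pcsk7 was not called and Pcsk5 was detected on no array.

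Of 18 proteins shed by ADAMs, 4 were called higher, 2 lower and 12 neither. Cx3cl1 (fractalkine), a membrane chemokine cut by ADAM10 and ADAM17, read 11.34, 12.05, 12.20 and 11.93 against 7.95, 8.0, 7.84 and 7.93 (3.95, SE 0.162, adjusted p = 2.12e-07). Tgfa, a ligand of the EGF receptor, read 8.68, 9.76, 9.29 and 9.39 against 6.78, 6.60, 6.0 and 6.29 (2.86, SE 0.233, adjusted p = 1.41e-05). Both were higher in all 4 rats, and both rose least in rat 1. Without background correction the log2 fold change was 3.53 for Cx3cl1 and 2.01 for Tgfa. The chemokine Cxcl16 (1.64) and the proteoglycan Sdc4 (1.03) were called as well. The Notch ligand Jag1 read 9.93, 9.65, 9.49 and 9.41 in the secretory stage and 8.92, 8.52, 8.41 and 8.89 in the maturation stage (-0.94, SE 0.146, adjusted p = 0.000897), and the adhesion protein Cdh1 (E-cadherin) was at -1.17 (adjusted p = 0.00375). Both missed the fold threshold under median scaling, at -0.60 and -0.83, and with no normalization between arrays, at -0.40 (adjusted p = 0.139) and -0.63 (adjusted p = 0.119). Jag1 also missed it without background correction, at -0.81, and without secretory replicate 1, at -0.84.

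Of 7 inhibitors and clearance genes other than TIMPs, A2m and Rarres1 were called higher. Rarres1, a membrane protein related to the carboxypeptidase inhibitor latexin, read 10.16, 10.44, 10.64 and 10.33 against 8.09, 8.12, 8.16 and 8.57 (2.16, SE 0.131, adjusted p = 2.16e-06). The broad proteinase trap A2m had no detected secretory-stage signal and rose at least 2.47-fold (adjusted p = 4.32e-05). Of 3 matrix substrates of ADAMTS enzymes the small proteoglycan Bgn was called (1.19). Among the 4 genes for astacin proteinases, which include the procollagen C-proteinases, and their enhancer, Bmp1 (0.98) and the enhancer Pcolce (1.02) were called higher and Tll1 was lower, with 8.18, 8.10, 7.74 and 7.99 in the secretory stage and 6.21, 6.36, 6.26 and 6.29 in the maturation stage (-1.72, SE 0.0942, adjusted p = 1.09e-06). The smallest fall of Tll1 among the alternative settings was -1.04. Of the ADAM10 and ADAM17 partners on the array, Tspan5 was at 0.73 and the iRhom Rhbdf1 at -0.12, and neither was called.

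**Figure D5:**
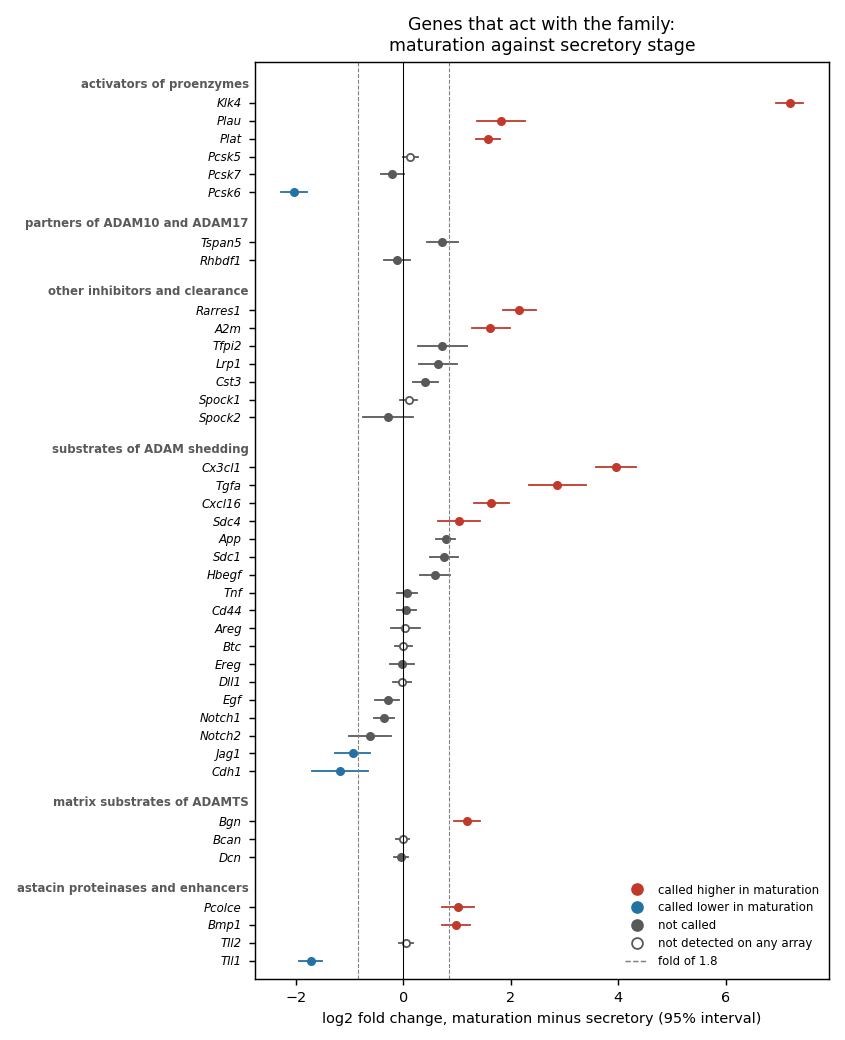
Log2 fold change (maturation minus secretory) with its 95% interval of the 40 genes that act with the family, by group; red points were called higher, blue points lower, open points were detected on no array, and dashed lines mark a fold of 1.8. Klk4 lies farthest to the right at 7.19, a fitted value against an undetected secretory stage, as are those of A2m, Ereg and Tnf, and Pcsk6 and Tll1 lie farthest to the left at -2.03 and -1.72.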

How the data were processed

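Enamel organ RNA of both stages from 4 rats was hybridized to 8 RatRef-12 v1 arrays. The authors deposited mean bead intensity per probe and array, with no background correction or normalization. The deposited table adds a detection p-value, the bead number and a standard error of the bead signal, which was not used here. The summarising software and genome build are not given in the sources used here. Stages were read from titles, descriptions and tissue labels, although the source field of 3 maturation samples (replicates 2, 3 and 4) says secretory. Columns of sample values left unused beyond these numbered 0.

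In R 4.3.3, neqc of limma 3.58.1 corrected background (controls inferred from detection p), applied an offset of 16 and quantile normalization on the log2 scale. lmFit and eBayes tested all 22523 probes without pairing, as the study's methods name a t-test and do not say that it was paired, and the scripts were tested on simulated data. Probes that no array of a stage detected (detection p below 0.05) got a lower bound: brighter mean minus, per array, the higher of the probe's value and the lowest detected signal. No fold is given where that bound was under 1. Offsets understate changes of dim probes.

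Members and lists were chosen with earlier results of these data known. Named genes were every member called, 11 listed members (Mmp2, Mmp9, Mmp13, Mmp14, Adam10, Adam17, Timp1, Timp2, Timp3, Reck and Bsg; Timp4, also listed, was not analysed here), the 5 most stable of those detected on all 8 arrays, members detected on all 4 arrays of 1 stage and on none of the other, and the 6 largest rises and the falls among called genes of the list that act with the family; others (Adam23, Mmp16, Adam1a, Adam8, the ADAMTS genes and the remaining list genes) were named after their values were seen. Of 64 member probes, 62 matched the GRCr8 gene table by gene ID and 59 kept their symbol. Promoter windows are from RefSeq (GRCr8).

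Each rat gave both stages, so replicate numbers pair the samples: over 11233 probes, deviations from stage means correlated at 0.195, 0.129, 0.219 and 0.234 within rats and at -0.0833 to -0.0426 on average between them. The rat as a block, 3 background settings, 3 normalizations, a detection filter, the methods' t-test, eBayes with trend, a fold of 1.5, bounds, genes in place of probes and each array left out were alternatives.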

Additional observations from a re-analysis of the deposited data

Results flagged for a closer look

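Within a stage, 1 of the 4 arrays stood apart from the others for 4 of the genes described, by its gap to the nearest value relative to the range of the stage. Of the 57 sets of 4 values examined this way, chance alone flags about 1 in 20. For Mmp14, maturation replicate 3 read 11.50 and the other maturation-stage arrays 11.39 to 11.40. For Timp1, secretory replicate 1 read 13.19 against 13.12 to 13.12. For Mmp23, maturation replicate 2 read 7.83 against 8.18 to 8.25. For Rarres1, secretory replicate 4 read 8.57 against 8.09 to 8.16. In Mmp14, Timp1 and Rarres1 the stages did not overlap with these arrays included. The cause was not tested.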

How the results depend on the processing

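The number of members called higher was 7 in the fit reported, 4 without background correction, 8 under median scaling (with Adamts7), 10 with no normalization between arrays (with Adamts7, Mmp10 and Mmp3) and 5 to 8 when 1 array was dropped. Mmp10 and Mmp3 enter such counts by fitted folds over an undetected secretory stage, and their bounds of 1.15-fold and 1.17-fold stay under a fold of 1.5. Mmp10 is in both counts of 8 with an array dropped. The number called lower was 0, with 0 to 1 when an array was left out, and with a fold of at least 1.5 it was 3 (Adam23, Mmp16 and Reck), beside 10 higher, Mmp10 and Mmp3 among them by fitted folds. With the rat as a block the same 7 members were called higher and 0 lower, the counts for the list that acts with the family stayed at 12 and 4, and at any fold 11 members were higher and 8 lower; the pairing changed no call. Genes of that list called lower numbered 2 both under median scaling and with no normalization between arrays, against 4, and those called higher 17 and 18, and 8 without background correction, against 12. Scaling also moved the share of higher calls among all called probes, from 59.3% to 77.6% under median scaling and 87.2% without normalization. Some small differences changed sign. With no normalization between arrays the values were 0.04 for Adam10 (ILMN_1371646), 0.09 for Mmp2, 0.43 for Mmp23 and 0.22 for Adamts16, and under median scaling 0.23 for Mmp23 and 0.03 for Adamts16. With an array left out, Adam17 ranged from -0.01 to 0.04, Bsg from -0.02 to 0.09 and Mmp11 from -0.00 to 0.16. Under median scaling and with no normalization they were 0.34 and 0.54, 0.32 and 0.52, and 0.34 and 0.54, and all but Mmp11 under median scaling passed the adjusted p. The cause was not tested. Timp3, Mmp13 and Mmp9 stayed called under every alternative run. Limits: 4 rats per stage, dim probes near background, 1 probe for most genes, and 24 of 61 member genes without a promoter window.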
